A study of Mus musculus with 75 samples.

Results

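The 9 genes described here encode enzymes that make, activate or break down deoxynucleotides, the building blocks of DNA. They are Rrm1, Rrm2, Tyms, Shmt1, Tk1, Dck, Dtymk, Dut and Samhd1. Their rows were taken by gene symbol from the deposited value table, and each gene was represented by the probe set with the highest mean over all arrays. All 9 were measured, out of 21552 genes with a symbol.

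The samples were 75 medulloblastoma allografts, each hybridised to its own one-colour array. The tumours came from Ptch1+/- mice and grew in nude CD1 hosts, so every group, vehicle included, shared that tumour genotype and that host. MK4101, which blocks sonic hedgehog (SHH) signalling, was given as a single dose (QD) of 40 or 80 mpk, the dose unit of the labels, or as multiple doses (BID) of 80 mpk. The QD 40 mpk groups held 4, 5, 3, 4 and 3 arrays at 1, 6, 12, 24 and 36 h. The QD 80 mpk groups held 5, 3, 4, 4 and 4 arrays, and the QD vehicle groups 5, 5, 4, 5 and 3, at the same times. The BID 80 mpk groups held 1 array at 24 h and 4 at 36 h, and the BID vehicle groups 4 and 5. Host age, the number of doses in the BID schedule and the number of tumour lines are not given in the sources used here. No label states that arrays of a group are separate animals, so a p-value measures only the spread between these arrays, which may be technical.

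Deoxynucleotides are made in a proliferating cell mainly by ribonucleotide reductase, a complex of the large subunit Rrm1 and the small subunit Rrm2 that turns ribonucleoside diphosphates into deoxyribonucleoside diphosphates. The thymidine nucleotide is made from deoxyuridine monophosphate by thymidylate synthase (Tyms), with a one-carbon unit on folate that serine hydroxymethyltransferase (Shmt1) helps supply, or is salvaged from thymidine by thymidine kinase (Tk1). Several of these genes are transcribed mainly around S phase. In granule neuron precursors of the cerebellum, the cells from which SHH medulloblastoma arises, SHH is the main mitogen, and loss of Ptch1, its inhibitory receptor, leaves the pathway on.

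Promoter sequence is shown for 5 of the genes to set the subunits and enzymes that responded beside Dck and Samhd1, whose differences from vehicle were the smallest of the lower genes or of opposite sign. The windows of Tyms, Tk1, Dtymk and Dut overlap their annotated genes and are not printed. Each run is the 150 bases just before the annotated gene start, 5′ to 3′ on the gene's own strand, from RefSeq GRCm38.p6. Capitals mark the letters of the CCAAT box and of the Sp1 box, GGGCGG, read on either strand. The reverse strand of the CCAAT box reads ATTGG, and that of the Sp1 box reads CCGCCC. The windows are chr7:102441545-102441694 (plus strand) for Rrm1, chr12:24708104-24708253 (plus) for Rrm2, chr11:60811266-60811415 (minus) for Shmt1, chr5:88764863-88765012 (plus) for Dck and chr2:157135097-157135246 (minus) for Samhd1.
Rrm1: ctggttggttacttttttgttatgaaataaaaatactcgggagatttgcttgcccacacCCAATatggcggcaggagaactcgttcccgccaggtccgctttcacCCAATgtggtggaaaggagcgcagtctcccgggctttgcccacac
Rrm2: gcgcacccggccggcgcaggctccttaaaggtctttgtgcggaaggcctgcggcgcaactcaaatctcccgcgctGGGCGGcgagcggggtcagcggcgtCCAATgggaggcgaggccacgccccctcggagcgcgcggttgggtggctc
Shmt1: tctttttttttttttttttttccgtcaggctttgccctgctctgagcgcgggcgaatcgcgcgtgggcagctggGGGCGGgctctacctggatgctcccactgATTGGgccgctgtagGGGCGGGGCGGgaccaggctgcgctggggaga
Dck: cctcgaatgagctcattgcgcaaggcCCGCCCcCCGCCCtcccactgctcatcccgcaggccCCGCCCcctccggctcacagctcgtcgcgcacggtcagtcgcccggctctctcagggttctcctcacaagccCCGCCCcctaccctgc
Samhd1: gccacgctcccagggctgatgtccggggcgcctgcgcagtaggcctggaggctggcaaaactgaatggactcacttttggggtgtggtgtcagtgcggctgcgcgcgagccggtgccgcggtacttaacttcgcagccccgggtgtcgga
The Rrm1 window holds CCAAT at 2 places, while the Rrm2 and Shmt1 windows each hold both kinds of letters. The Dck window holds the Sp1 letters at 4 places, all on the other strand, and the Samhd1 window holds neither. Letters were counted over windows of 250 bases, searched on both strands. For Tyms, Tk1, Dtymk and Dut these windows overlap the annotated gene and do not lie wholly before it. CCAAT was present in 4 of 9 members against 33.8% of 32851 RefSeq promoters. GGGCGG was present in 7 of 9 members against 32.7% of all promoters. The letter strings of the E2F site (TTTGGCGC, TTTCCCGC, TTTCGCGC, TTTGGCGG, TTTCCCGG and TTTCGCGG) were present in 0 of 9 members against 3.11% of all promoters. With so low a share, 0 of 9 cannot set the members apart from other genes. Only exact matches of all 8 letters were counted, so sites with other letters would be missed. TTTGAA, the letters of the CHR element, was present in Dck alone among the 9, against 16% of all promoters. These are matches of letters within 1 window and no measure of binding.

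Values are scaled intensities on a linear scale on which each array has a mean of 1.000, and a group's level is the geometric mean of its arrays. Each array's median lay between 0.109 and 0.131. Differences are in log2, MK4101 minus vehicle, with the standard error (SE) from 1 limma fit over all 75 arrays. A gene was called at a Benjamini-Hochberg adjusted p of at most 0.05 over all 21552 genes. Levels of different genes come from different probe sets and are not set against each other. The tumour label was checked with markers of the granule neuron lineage, of which 15 of 17 were measured. Their summed level was 68.1 to 135 over all arrays, with Atoh1 at 10.2 to 29.2, Zic1 at 23.0 to 52.2 and Neurod1 at 8.60 to 29.5, while Barhl2 (0.0332 to 0.0556) and Gabra6 (0.0345 to 0.0898) lay near the low end of the scale. Lhx9, Cbln3, Zic2 and Pax6 also stayed below the array mean, reaching no more than 0.103, 0.188, 0.338 and 0.518. The sum was higher in MK4101-treated than in vehicle tumours without overlap in each comparison from 6 h on other than 40 mpk at 36 h. Examples are 6 h (96.0 to 112 at 40 mpk and 100 to 117 at 80 mpk, against 73.0 to 87.8), 24 h after 80 mpk (90.8 to 129 against 83.9 to 87.6) and BID 36 h (107 to 135 against 77.0 to 95.1). The brightest markers weigh most in this sum, and single markers were mixed. Without arrays rich in muscle transcripts 5 of 15 were higher and 0 lower at 24 h after 80 mpk (−0.89 to 1.30). With BID at 36 h 8 were higher and 1 lower (−0.68 to 1.73). Of all 21552 genes 2401 and 3380 were higher in these comparisons. The part of this list in the differences of the enzymes was not tested. Gli1, a direct target of the SHH pathway, served as the check of drug action. At 80 mpk its difference was 0.11 ± 0.19 at 1 h, −4.00 ± 0.22 at 6 h, −4.48 ± 0.22 at 12 h, −3.19 ± 0.21 at 24 h and 0.05 ± 0.23 at 36 h. The time courses of the 9 enzymes are plotted with their standard errors.

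**Figure D1:**
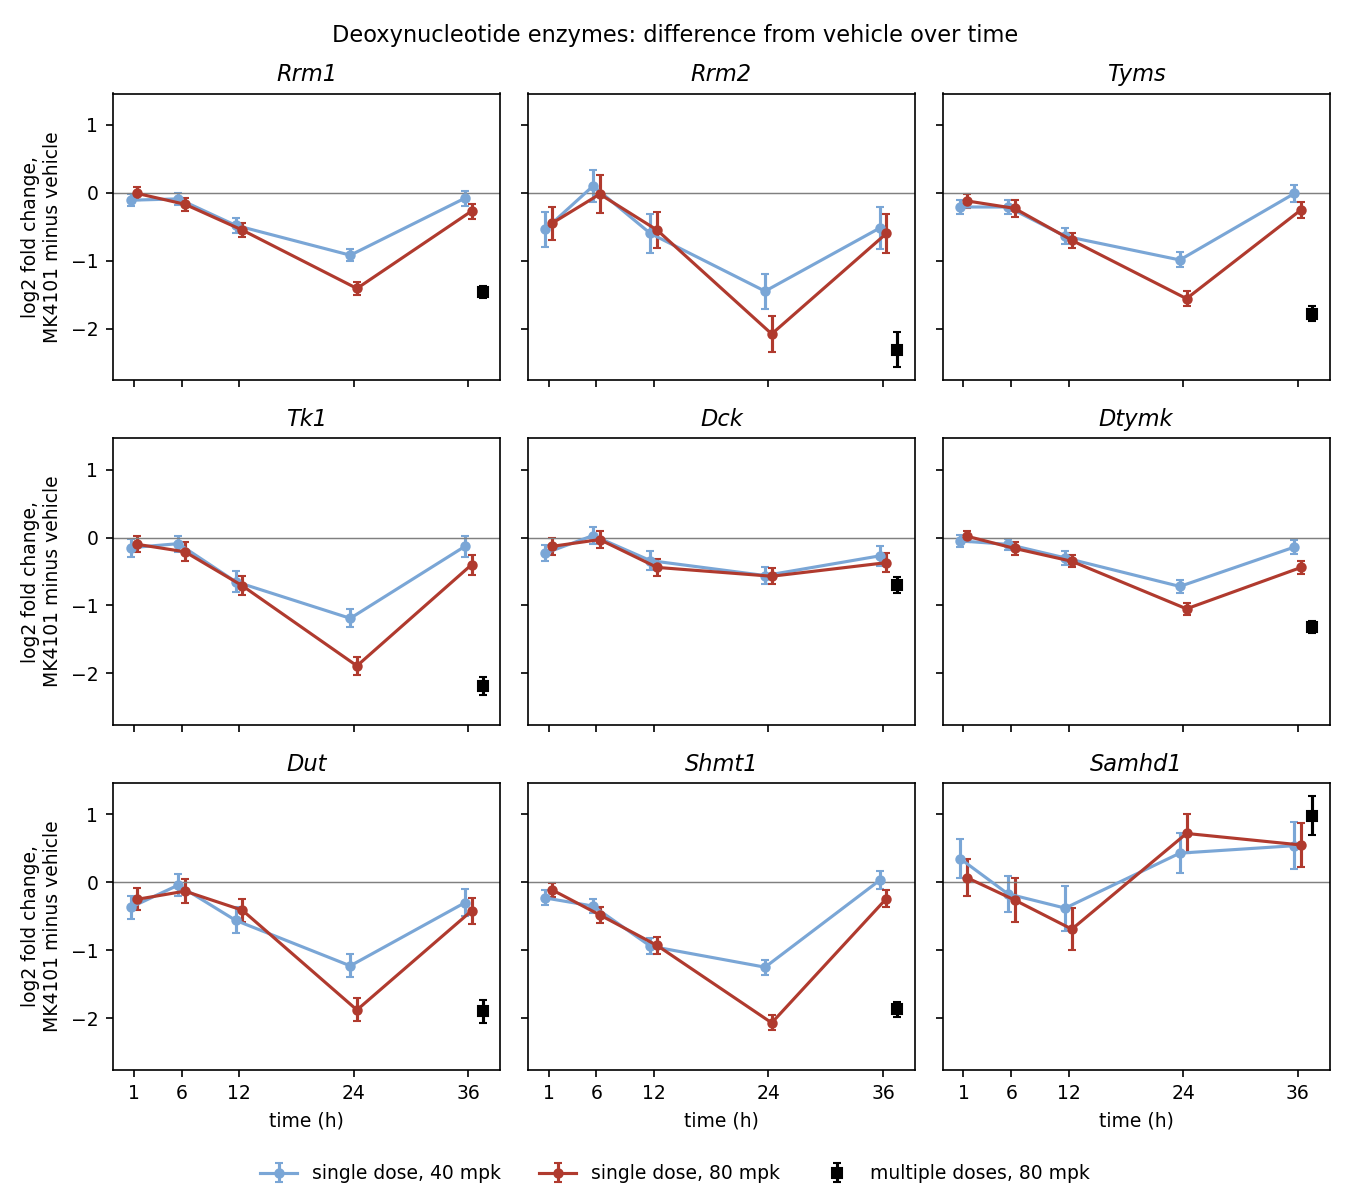
Log2 difference from vehicle of the same time and schedule (y axis) against hours after dosing (x axis) for each of the 9 genes; circles joined by lines are QD 40 mpk (blue) and QD 80 mpk (red), the black square is BID 80 mpk at 36 h, and bars are the SE. Differences of 8 genes are largest below 0 at 24 h among the single-dose times at 80 mpk (−2.08 for Rrm2, −0.57 for Dck), and BID 80 mpk lies below 0 at 36 h for the same 8.

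No member was called at 1 h at either dose, and neither was any gene on the array (0% lower and 0% higher). At an unadjusted p under 0.05 there were 2290 genes at 40 mpk, 3 of them members (Rrm2, Dut and Shmt1), and 1325 genes at 80 mpk, 0 of them members. Rrm2 stood at 3.48 in 40 mpk tumours and 3.71 in 80 mpk tumours, against 5.07 in vehicle tumours. Its differences were −0.54 ± 0.26 (adjusted p = 0.443) at 40 mpk and −0.45 ± 0.24 (adjusted p = 0.795) at 80 mpk.

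Shmt1 was the 1 member called at 6 h, and only at 80 mpk. It read 1.81, 1.79 and 2.04 in 80 mpk tumours, against 2.29, 2.18, 2.93, 2.75 and 3.02 in vehicle tumours. All 3 treated arrays lay below all 5 vehicle arrays, as they did for 3.04% of all genes. The difference was −0.48 ± 0.12 (adjusted p = 0.0152), where 1.18% of all genes were lower and 0.575% higher. In a bulk tumour sample, fewer cells of a type and less RNA per cell cannot be told apart. The call did not hold when vehicle replicate 3 or 5 or treated replicate 1 or 2 was left out (−0.45 to −0.42, adjusted p 0.0568 to 0.12), nor in a fit on the 2 groups alone (−0.48, adjusted p = 0.234). At 40 mpk Shmt1 read 2.04, 1.87, 2.03, 2.0 and 2.33, overlapping the same vehicle arrays, with a difference of −0.35 ± 0.10 (adjusted p = 0.0639). It was called there without vehicle replicate 1 or 2 or treated replicate 5 (−0.42 to −0.40, adjusted p 0.024 to 0.0384). At that dose 1.05% of genes were lower and 0.626% higher, and no member was among them. The other 8 members had differences between −0.26 and 0.10 over both doses.

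By 12 h the enzymes of the thymidylate branch were lower in MK4101-treated tumours, and so was the large reductase subunit on the probe set used. At 80 mpk 6 of the 9 members were called lower and 0 higher, against 5.99% and 3.85% of all genes. At 40 mpk 5 were lower and 0 higher, against 2.59% and 3.90%. The 2 doses share 4 vehicle arrays, so their calls are not independent. All treated arrays lay below all vehicle arrays for 6 members at 80 mpk and 8 at 40 mpk, and for 6.84% and 6.79% of all genes; at 80 mpk Samhd1 was among the 6 without being called, while called Dck overlapped vehicle.

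Shmt1 had the largest difference among the members at 12 h. It read 1.29, 1.45 and 1.46 at 40 mpk and 1.44, 1.32, 1.37 and 1.55 at 80 mpk, against 2.63, 3.16, 2.35 and 2.70 with vehicle. Neither dose overlapped vehicle. The differences were −0.94 ± 0.12 (adjusted p = 1.02e-07) and −0.93 ± 0.12 (adjusted p = 8.61e-09). Tyms read 2.10, 2.29 and 2.30 at 40 mpk and 2.04, 2.47, 2.10 and 1.95 at 80 mpk, against 3.75, 3.64, 3.07 and 3.40 with vehicle, again without overlap. Its differences were −0.64 ± 0.12 (adjusted p = 0.000169) and −0.70 ± 0.11 (adjusted p = 4.09e-06). Tk1, the S phase thymidine kinase, differed by −0.65 ± 0.15 (adjusted p = 0.00233) at 40 mpk and −0.71 ± 0.14 (adjusted p = 0.000139) at 80 mpk.

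The 2 subunits of ribonucleotide reductase had unequal spread at 12 h. Rrm1 read 4.68, 4.95 and 4.97 at 40 mpk and 4.50, 4.62, 4.59 and 4.78 at 80 mpk, against 7.19, 7.37, 5.82 and 6.87 with vehicle. Every treated array was below every vehicle array, and the differences were −0.48 ± 0.11 (adjusted p = 0.00149) and −0.55 ± 0.10 (adjusted p = 2.83e-05). With the mean of all 3 Rrm1 probe sets, the others of which varied more between arrays, neither was called (−0.59, adjusted p = 0.284, and −0.23, adjusted p = 0.716). Rrm2 read 1.88, 2.48 and 2.25 at 40 mpk and 1.88, 2.84, 2.82 and 1.75 at 80 mpk, against 3.97, 3.78, 2.79 and 2.89 with vehicle. The 80 mpk arrays overlapped vehicle, and neither difference was called (−0.60 ± 0.29, adjusted p = 0.27, and −0.55 ± 0.27, adjusted p = 0.23). A second Rrm2 probe set was lower at both doses, by −0.89 ± 0.19 (adjusted p = 0.000686) and −0.70 ± 0.17 (adjusted p = 0.00305). Whether either subunit counts as lower at 12 h thus turned on the probe set.

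Among the remaining kinases and pool enzymes the 12 h differences were smaller. Dtymk, which phosphorylates thymidine monophosphate, differed by −0.30 ± 0.10 (adjusted p = 0.0494) at 40 mpk and −0.35 ± 0.09 (adjusted p = 0.00514) at 80 mpk. A second Dtymk probe set was called at 40 mpk (−0.29, adjusted p = 0.0462) but not at 80 mpk (−0.12, adjusted p = 0.47). The 40 mpk call was lost when any 1 of its 7 arrays other than vehicle replicate 3 was left out (−0.32 to −0.24, adjusted p 0.0705 to 0.208). Dck, which starts the salvage of deoxycytidine and purine deoxynucleosides, was lower at 80 mpk (−0.44 ± 0.13, adjusted p = 0.0186) and not called at 40 mpk (−0.34 ± 0.14, adjusted p = 0.165). Without vehicle replicate 1 or 2 or treated replicate 1 the Dck call was lost (−0.40 to −0.30, adjusted p 0.0674 to 0.187). Dut, the pyrophosphatase that removes dUTP, had differences of −0.56 ± 0.19 (adjusted p = 0.0607) and −0.41 ± 0.17 (adjusted p = 0.144). Without vehicle replicate 3 the 40 mpk difference was called (−0.67, adjusted p = 0.032). Array weights or muscle and fibroblast covariates gave Dut calls at both doses (adjusted p 0.00202 and 0.0036 at 40 mpk, 0.0403 and 0.0154 at 80 mpk). The second Dut probe set was called at both doses (−0.68, adjusted p = 8.21e-06, and −0.91, adjusted p = 4.31e-10). Samhd1, which breaks deoxynucleotides down, was not called at either dose (−0.38 ± 0.33 and −0.69 ± 0.31).

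At 24 h after 80 mpk, 8 of the 9 members were lower and Samhd1 was higher, against 15.3% of all genes lower and 17.6% higher. The median difference of the 9 was −1.56, and that of all genes −0.02. For the 8 lower members every one of the 4 treated arrays lay below every one of the 5 vehicle arrays, and for Samhd1 every treated array lay above, separations seen in 14.3% and 14.4% of all genes. At 40 mpk the same 8 were lower and Samhd1 was not called (0.43 ± 0.29, adjusted p = 0.311), against 12.1% of genes lower and 14.5% higher. The 2 doses share their vehicle arrays. The values by array are plotted below for 80 mpk.

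**Figure D2:**
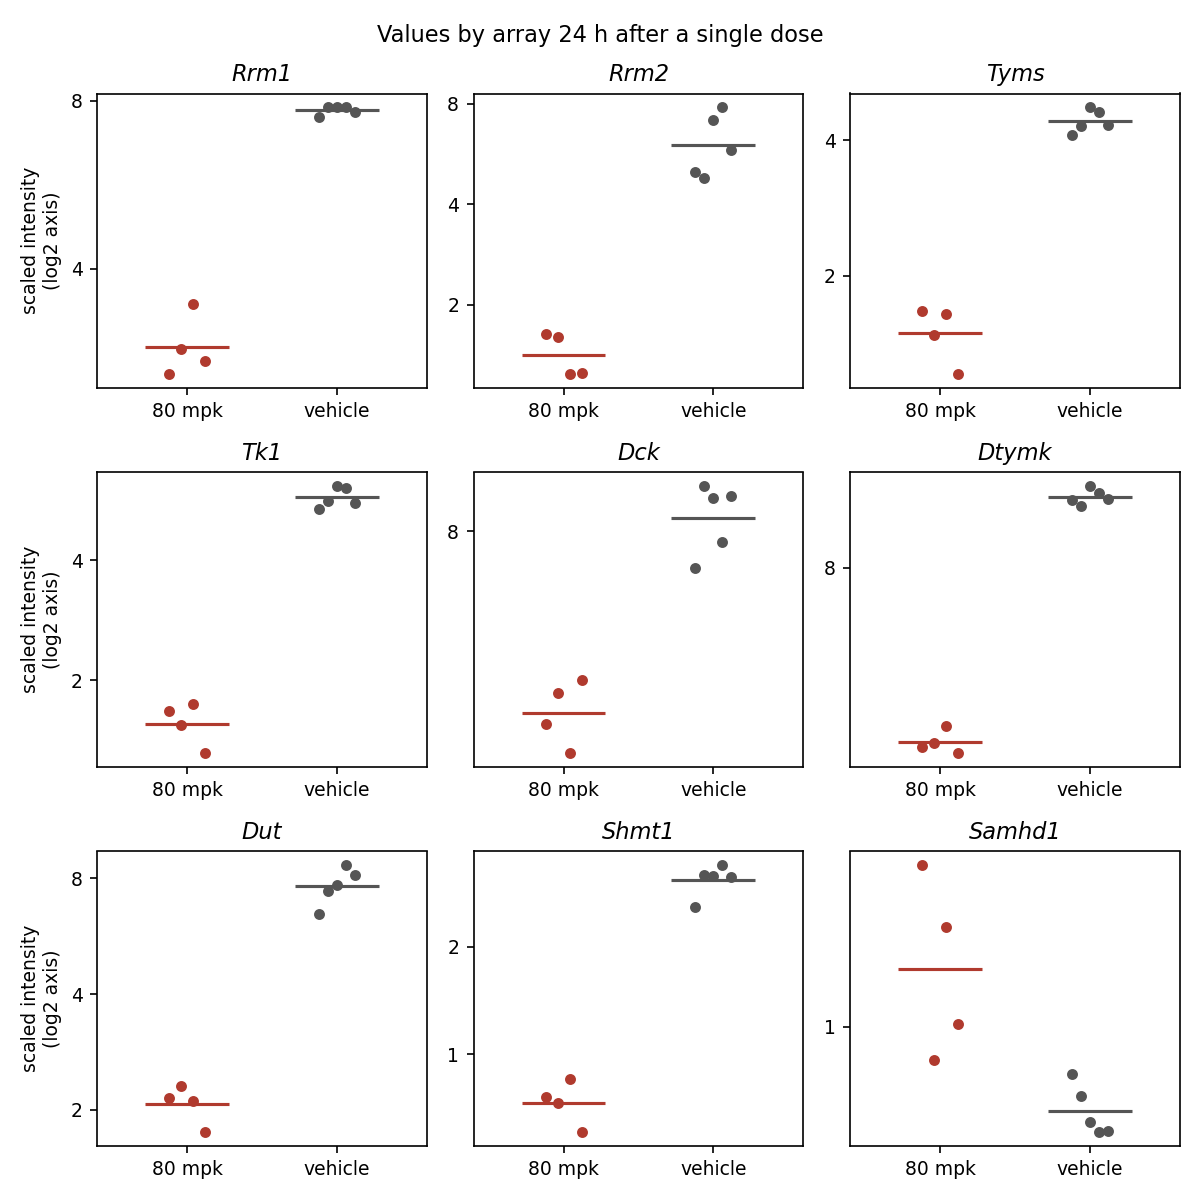
Scaled intensity of each array at 24 h (y axis, log2 scale) for QD 80 mpk (left, n = 4) and QD vehicle (right, n = 5) in 1 panel per gene; bars are geometric means. The treated points lie below all vehicle points in 8 panels and above them for Samhd1 (0.888 to 1.77 against 0.689 to 0.846).

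Both subunits of ribonucleotide reductase were lower. Rrm2 read 1.64, 1.60, 1.24 and 1.25 in 80 mpk tumours, against 4.98, 4.79, 7.12, 7.82 and 5.83 in vehicle tumours. The treated arrays lay close together and the vehicle arrays were more spread. The geometric means of 1.42 and 6.00 differed 4.23-fold (−2.08 ± 0.26, adjusted p = 8.91e-10). Rrm1 read 2.59, 2.87, 3.46 and 2.74, against 7.48, 7.78, 7.80, 7.80 and 7.63 with vehicle. It was 2.66-fold lower (−1.41 ± 0.09, adjusted p = 2.48e-19), and its vehicle arrays differed little from each other. Rrm2b, the small subunit that p53 induces and that serves DNA repair, was outside the 9 and read 1.04, 1.04, 0.966 and 1.13, against 0.823, 0.834, 0.926, 0.908 and 0.843 with vehicle. It was slightly higher (0.27 ± 0.09, adjusted p = 0.015), a call that was lost with a second quantile normalisation (0.16, adjusted p = 0.253) and without arrays rich in muscle transcripts (0.26, adjusted p = 0.11). Rrm2b was also higher at 12 h after 80 mpk (0.33 ± 0.09, adjusted p = 0.0126), where 3.85% of all genes were higher. At 24 h after 40 mpk it was higher too (0.24 ± 0.09, adjusted p = 0.0392), with 14.5% of all genes higher. With BID 80 mpk at 36 h it was not called (0.18 ± 0.09, adjusted p = 0.106).

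In the thymidylate branch Shmt1 had the smallest adjusted p of the 9. It read 0.758, 0.730, 0.855 and 0.606 in 80 mpk tumours, against 2.57, 3.17, 3.15, 3.38 and 3.13 in vehicle tumours, a 4.19-fold lower level (−2.07 ± 0.11, adjusted p = 6.4e-23). Even the lowest vehicle array stood well above the highest treated one. Tyms read 1.67, 1.48, 1.65 and 1.21, against 4.10, 4.30, 4.74, 4.61 and 4.33 with vehicle, and was 2.95-fold lower (−1.56 ± 0.11, adjusted p = 7.12e-19). A second Tyms probe set differed by −1.14. Dtymk, which acts on the product of both Tyms and Tk1, read 4.70, 4.77, 5.01 and 4.62, against 9.79, 9.62, 10.2, 9.99 and 9.81 with vehicle. The spread within either group was small beside the 2.07-fold difference (−1.05 ± 0.09, adjusted p = 7.95e-16).

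The 2 salvage kinases differed in size of response. Tk1 read 1.67, 1.54, 1.74 and 1.31 in 80 mpk tumours, against 5.40, 5.65, 6.16, 6.10 and 5.59 in vehicle tumours, and was 3.71-fold lower (−1.89 ± 0.13, adjusted p = 1.41e-18). Dck read 5.41, 5.76, 5.10 and 5.92, against 7.42, 8.77, 8.56, 7.82 and 8.60 with vehicle. It was 1.48-fold lower (−0.57 ± 0.12, adjusted p = 0.000167), the smallest difference among the 8 lower members at this time. The difference between the 2 kinases' responses was not tested, since each rests on its own probe set.

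Of the enzymes that remove nucleotides, Dut and Samhd1 were called in opposite directions. Dut read 2.15, 2.31, 2.11 and 1.75 in 80 mpk tumours, against 6.46, 7.41, 7.69, 8.66 and 8.16 in vehicle tumours, and was 3.69-fold lower (−1.88 ± 0.17, adjusted p = 1.17e-14). Samhd1 read 1.77, 0.888, 1.42 and 1.01, against 0.846, 0.783, 0.714, 0.689 and 0.692 with vehicle. The groups did not overlap, but the lowest treated array was near the highest vehicle array. The level was 1.65-fold higher (0.72 ± 0.29, adjusted p = 0.0486). Leaving out vehicle replicate 2, 3, 4 or 5 or treated replicate 1 or 3 ended this call (0.55 to 0.74, adjusted p 0.0605 to 0.204).

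The enzymes were lower after 80 than after 40 mpk at 24 h in 5 cases, against 1.20% of all genes lower and 0.00928% higher in that comparison. Shmt1 read 0.758, 0.730, 0.855 and 0.606 at 80 mpk, against 1.68, 1.07, 1.34 and 1.16 at 40 mpk (−0.82 ± 0.12, adjusted p = 9.05e-06). Tk1 read 1.67, 1.54, 1.74 and 1.31, against 3.21, 2.06, 2.31 and 2.71 (−0.71 ± 0.14, adjusted p = 0.00119). The 80 mpk arrays lay below the 40 mpk arrays for both genes, as they did for Tyms, Rrm1 and Dtymk. The share of all genes separated in this way was not counted. Tyms (−0.57 ± 0.11, adjusted p = 0.00115), Rrm1 (−0.49 ± 0.10, adjusted p = 0.00159) and Dut (−0.65 ± 0.17, adjusted p = 0.0409) were lower too. The Dut call was lost when any array other than 40 mpk replicate 2 was left out (−0.70 to −0.53, adjusted p 0.0508 to 0.362), and with a second quantile normalisation (−0.64, adjusted p = 0.0569). For Dck the difference between doses was 0.00 ± 0.13, with a 95% interval of −0.26 to 0.26. For Rrm2 it was −0.63 ± 0.27 (adjusted p = 0.477), with an interval of −1.17 to −0.09, and for Dtymk −0.33 ± 0.09 (adjusted p = 0.0505; −0.35, adjusted p = 0.0475 without 80 mpk replicate 3). No member was called between doses at 1, 6, 12 or 36 h, where 0%, 0%, 0.0325% and 0.543% of all genes were lower at the higher dose and 0%, 0%, 0.0278% and 0.283% were higher. Gli1 stood at 0.253 in 80 mpk tumours and 0.978 in 40 mpk tumours at 24 h, against 2.30 in vehicle tumours. Muscle transcripts were high in 3 of the 4 arrays at 40 mpk and 2 of the 4 at 80 mpk at 24 h. The doses were not compared without those arrays.

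Between 12 and 24 h the differences widened at 80 mpk. The change of the effect, tested as the 24 h difference minus the 12 h difference, was below 0 for 7 members, against 8.02% of all genes. It was −1.53 for Rrm2, −1.47 for Dut, −1.18 for Tk1, −1.14 for Shmt1, −0.86 for both Tyms and Rrm1, and −0.70 for Dtymk. For each of these 7 the vehicle level rose over the interval and the 80 mpk level fell. Rrm2 went from 3.32 to 6.00 with vehicle and from 2.26 to 1.42 at 80 mpk. Shmt1 went from 2.69 to 3.07 with vehicle and from 1.42 to 0.731 at 80 mpk. Dck showed no called widening (−0.13 ± 0.18, adjusted p = 0.696). The Samhd1 effect moved upward by 1.41 ± 0.42 (adjusted p = 0.015, 9.40% of genes higher), a call lost without vehicle replicate 3 of 12 h (1.22, adjusted p = 0.0621). At 40 mpk only Dtymk was called (−0.42, adjusted p = 0.049, with 2.53% of genes lower and 1.58% higher). Leaving out any 1 of 12 of its 16 arrays ended that call (−0.45 to −0.37, adjusted p 0.0518 to 0.167), the exceptions being vehicle replicates 2 and 4 of 12 h and 40 mpk replicates 1 and 4 of 24 h. Without vehicle replicate 2 of 12 h or 40 mpk replicate 1 of 24 h, Rrm1 was called as well (−0.51 to −0.48, adjusted p 0.0331 to 0.0364). Between 6 and 12 h no member's effect was called as changed at either dose. Over that interval 0% and 0% of genes changed at 40 mpk, and 0.144% were lower and 0.0325% higher at 80 mpk. At an unadjusted p under 0.05, 6 members of 1360 genes passed at 40 mpk and 5 of 1788 at 80 mpk.

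At 36 h after a single dose of 80 mpk the differences of all members were smaller than at 24 h. At 40 mpk this held for all but Samhd1 (0.54 at 36 h and 0.43 at 24 h, neither called). Dtymk was the 1 member still called at 80 mpk, where 5.64% of all genes were lower and 5.22% higher. It read 6.94, 7.52, 7.49 and 7.23, against 10.1, 8.86 and 10.9 with vehicle, without overlap (−0.44 ± 0.10, adjusted p = 0.00105). Tk1 read 3.06, 4.72, 4.55 and 4.17, against 5.43, 5.25 and 5.41 with vehicle. All its treated arrays were below vehicle, as for 6 members and 12.3% of all genes, and 1 was far below, yet the difference of −0.40 did not pass (adjusted p = 0.0749). Without treated replicate 2 both Tk1 (−0.47, adjusted p = 0.0393) and Rrm1 (−0.34, adjusted p = 0.0304) were called, and Rrm1 also without vehicle replicate 2 (−0.35, adjusted p = 0.0465). Tyms read 2.75, 4.03, 3.76 and 3.79, against 4.07, 4.31 and 4.30 with vehicle (−0.25, adjusted p = 0.188). The same treated array, replicate 1, was again the lowest. In Rrm2 it read 2.0 beside 4.22, 3.98 and 4.48, against 5.68, 4.77 and 5.57 with vehicle (−0.60, adjusted p = 0.194). The second Rrm2 probe set was called (−0.60 ± 0.19, adjusted p = 0.0256). At 40 mpk no member was called at 36 h, where 0.390% of genes were lower and 0.288% higher. At an unadjusted p under 0.05 there were 2470 genes and 0 members at 40 mpk, and 5016 genes and 7 members at 80 mpk.

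The effect at 36 h minus that at 24 h was called above 0 for 7 members at 80 mpk, against 3.99% of all genes above 0 and 1.75% below. It was 1.82 for Shmt1, 1.49 for Tk1, 1.48 for Rrm2, 1.47 for Dut, 1.31 for Tyms, 1.14 for Rrm1 and 0.61 for Dtymk. Dck (0.19 ± 0.19, adjusted p = 0.752) and Samhd1 (−0.18 ± 0.44, adjusted p = 0.94) were not called. At 40 mpk 6 members were called, against 3.93% of all genes above 0 and 2.17% below, with Shmt1 at 1.28 ± 0.17 (adjusted p = 8.04e-07) and Tk1 at 1.06 ± 0.21 (adjusted p = 0.000301). Dut was called at 0.93 ± 0.26 (adjusted p = 0.0167), but not without 40 mpk replicate 2 of 24 h (0.77, adjusted p = 0.067) or replicate 3 of 36 h (0.81, adjusted p = 0.0753). Rrm2 was not called (0.92 ± 0.40, adjusted p = 0.214). The 24 h and 36 h effects each use their own vehicle group.

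With multiple doses the enzymes were still low at 36 h. Of the 9 members 8 were lower and Samhd1 higher, against 17.7% of all genes lower and 19.8% higher. The median difference of the 9 was −1.78, and that of all genes 0.01. All 8 lower members were free of overlap with vehicle, as were 12.9% of all genes. The arrays of both schedules at 36 h are plotted side by side.

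**Figure D3:**
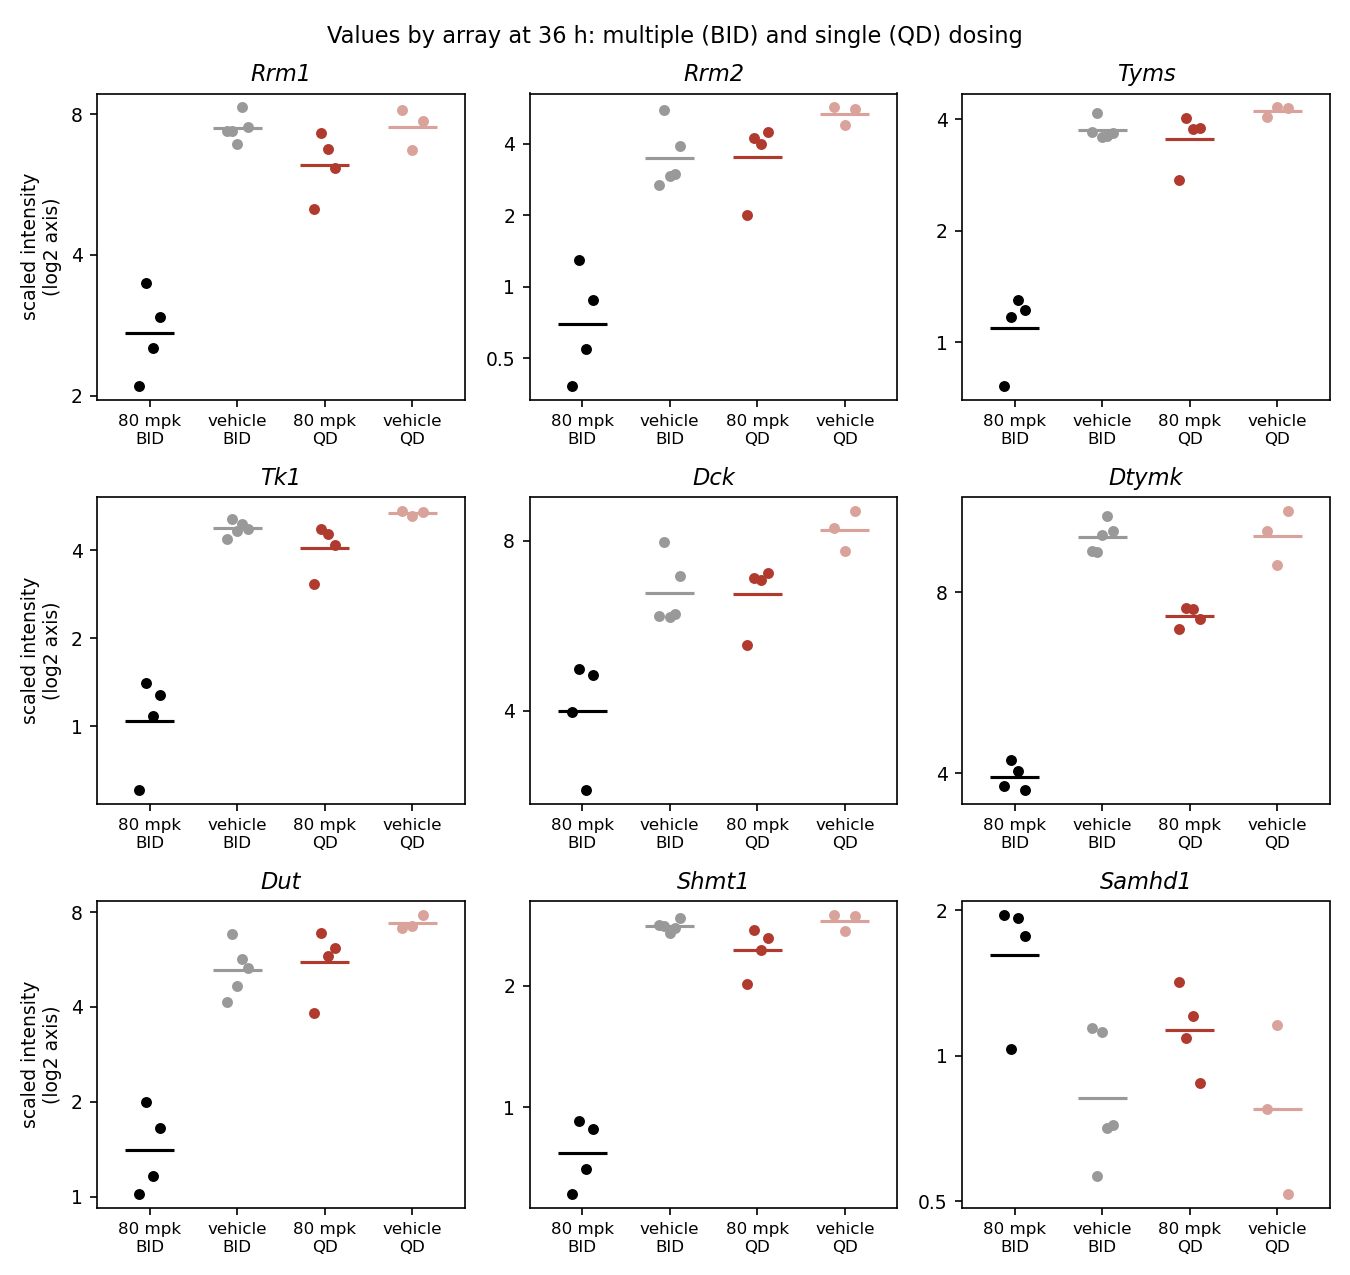
Scaled intensity of each array at 36 h (y axis, log2 scale) for BID 80 mpk (n = 4), BID vehicle (n = 5), QD 80 mpk (n = 4) and QD vehicle (n = 3), left to right, in 1 panel per gene; bars are geometric means. BID 80 mpk points lie below BID vehicle for 8 genes. QD 80 mpk points lie below QD vehicle for 6 genes by a narrower gap, as for Dtymk (6.94 to 7.52 against 8.86 to 10.9), and overlap it for 3, as for Shmt1 (2.02 to 2.75 against 2.73 to 2.99).

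Rrm2 read 0.383, 1.30, 0.546 and 0.877 in BID 80 mpk tumours, against 2.69, 5.53, 2.91, 2.99 and 3.92 in BID vehicle tumours. Replicate 2 was the highest array in both groups, although the numbers do not pair the arrays. The 4.97-fold difference (−2.31 ± 0.26, adjusted p = 2.02e-11) was the largest of the 9. Tk1 read 0.605, 1.40, 1.08 and 1.28, against 4.37, 5.11, 4.67, 4.92 and 4.72 with vehicle (4.57-fold lower, −2.19 ± 0.13, adjusted p = 1.07e-21). Dut was 3.73-fold, Shmt1 3.66-fold, Tyms 3.43-fold, Rrm1 2.75-fold and Dtymk 2.50-fold lower (differences of −1.90 ± 0.17, −1.87 ± 0.11, −1.78 ± 0.11, −1.46 ± 0.09 and −1.32 ± 0.09). Dck read 3.98, 4.75, 2.90 and 4.64, against 5.90, 7.97, 5.86, 5.94 and 6.92 with vehicle (1.62-fold lower, −0.70 ± 0.12, adjusted p = 3.82e-06). Its gap to vehicle was again the narrowest of the 8.

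The effect of 80 mpk at 36 h was lower with BID than with QD dosing for 7 members, against 5.36% of all genes lower and 1.90% higher. The differences of the effects were −1.79 for Tk1, −1.71 for Rrm2, −1.63 for Shmt1, −1.52 for Tyms, −1.48 for Dut, −1.19 for Rrm1 and −0.88 for Dtymk. Dck differed by −0.32 ± 0.19 (adjusted p = 0.374, interval −0.70 to 0.05) and Samhd1 by 0.44 ± 0.44 (adjusted p = 0.685). Gli1 followed the same split, at −2.90 ± 0.21 with BID and 0.05 ± 0.23 with QD dosing. Each effect uses the vehicle group of its own schedule, and these were not alike for every gene. At 36 h Rrm2 stood at 3.48 in BID and 5.32 in QD vehicle tumours, and Rrm1 at 7.47 and 7.51. Whether the time since the last dose was equal is not given in the sources used here.

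The single BID 80 mpk array at 24 h has no replicate and no test. Rrm2 read 0.696 in it, against 3.22 to 4.25 in the 4 vehicle arrays, a 5.16-fold lower level than their geometric mean. Shmt1 read 0.542, against 2.66 to 3.21 (5.24-fold lower), and Tyms 1.14, against 3.35 to 3.89 (3.24-fold lower). A level at least 2-fold lower was seen in 2.59% of all genes, and 1.82% were as much higher. Samhd1 read 1.03, within the vehicle range of 0.901 to 1.98.

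Samhd1 is also known for its high expression in myeloid cells, and host cell markers moved with it. At BID 36 h it read 1.95, 1.03, 1.93 and 1.77 in 80 mpk tumours, against 1.14, 0.563, 1.12, 0.708 and 0.718 in vehicle tumours. Only the array at 1.03 overlapped vehicle (0.98 ± 0.29, 1.98-fold, adjusted p = 0.00477). A second, dim Samhd1 probe set (geometric mean 0.0981 over all arrays) was not called at BID 36 h (0.06, adjusted p = 0.809) or at QD 24 h after 80 mpk (0.04, adjusted p = 0.866). In the same arrays 12 of 14 measured macrophage markers were higher, with a summed level of 166 to 243 in 80 mpk tumours and 47.8 to 83.7 in vehicle tumours. Of 13 fibroblast markers 11 were higher, with sums of 167 to 251 and 58.5 to 104. At QD 24 h 12 of the 14 macrophage markers were higher (sums of 154 to 258 in 80 mpk tumours and 66.9 to 132 in vehicle tumours), as were 10 of the 13 fibroblast markers (124 to 199 and 62.1 to 127). There 8 of 12 endothelial markers (5.73 to 9.99 and 3.60 to 4.70) and 4 of 9 adipocyte markers (15.6 to 111 and 5.33 to 13.4) were higher too. These sums were higher in the same arrays in which the 8 other enzymes were lower, and their part in those differences was not tested.

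When the mean levels of the muscle and fibroblast lists, but not of the macrophage list, were entered in the fit as covariates, the Samhd1 difference became −0.06 (adjusted p = 0.841) at QD 24 h and −0.17 (adjusted p = 0.622) at BID 36 h. At QD 36 h after 80 mpk, 12 of the 14 macrophage markers were higher as well (135 to 172 in 80 mpk tumours, 36.8 to 114 in vehicle tumours), while Samhd1 was not called (0.55 ± 0.33, adjusted p = 0.332). The part of host cells in the Samhd1 difference was not tested. Muscle transcripts were high in 23 of the 75 arrays, and at QD 24 h their summed level was 2.35 to 265 in 80 mpk tumours and 2.42 to 49.1 in vehicle tumours, with 0 of 16 muscle genes called. Without those arrays Samhd1 differed by 0.73 (adjusted p = 0.214) at QD 24 h and 1.29 (adjusted p = 0.0132) at BID 36 h. The 8 lower members were called lower in both comparisons without them. At 24 h after 40 mpk the muscle sum was 3.13 to 399, and 3 of the 4 arrays were rich in muscle transcripts. That group was not compared without such arrays.

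Under vehicle alone 3 members varied over the QD times, against 6.28% of all genes (moderated F over the 5 vehicle groups). Rrm2 stood at 5.07, 3.28, 3.32, 6.00 and 5.32 at 1, 6, 12, 24 and 36 h (adjusted p = 0.0311). Dut stood at 6.76, 5.14, 4.84, 7.64 and 7.39 (adjusted p = 0.0127) and Tyms at 4.54, 3.49, 3.46, 4.41 and 4.23 (adjusted p = 0.0129). All 3 were lowest at 6 and 12 h, so the level that treated tumours were set against was itself not constant. The second Rrm2 probe set also varied (adjusted p = 0.0279), but the second sets of Dut (adjusted p = 0.401) and Tyms (adjusted p = 0.835) did not pass. Rrm1 did not pass (adjusted p = 0.515), whereas its other probe sets did (adjusted p = 0.011 and 0.0151). Vehicle groups of the same hour also differed by schedule. In BID vehicle tumours Rrm2 stood at 3.59 at 24 h and 3.48 at 36 h, and Dut at 5.30 and 5.24. Samhd1 stood at 1.33 with BID vehicle at 24 h, against 0.742 with QD vehicle. Rrm1 (7.47 with BID and 7.51 with QD vehicle) and Dtymk (9.87 and 9.92) were close at 36 h. The difference between schedules under vehicle was not tested.

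Across the 18 groups with at least 3 arrays, the highest group mean was 8.58-fold the lowest for Rrm2, 5.55-fold for Tk1, 5.44-fold for Dut and 4.34-fold for Shmt1. The ratio was 4.17-fold for Tyms, 2.84-fold for Rrm1, 2.54-fold for Dtymk, 2.29-fold for Samhd1 and 2.09-fold for Dck. Over the 31 vehicle arrays Rrm2 had a low of 2.23, a median of 4.20 and a high of 7.82, and Samhd1 had a low of 0.518, a median of 0.871 and a high of 1.98. The 28 pairs among the 8 members other than Samhd1 had Pearson correlations of 0.85 to 0.99 over the 18 group means. Samhd1 correlated with those 8 at −0.60 to −0.39, and Rrm2b at −0.73 to −0.38. The group means share arrays and treatments between genes, so these are descriptions.

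The genes most like 3 of the members were found by Pearson correlation of log2 means over the same 18 groups. For Rrm2 they were Ttf2 (0.987), Diaph3 (0.981), Lbr (0.981), Exosc8 (0.980) and Fen1 (0.980), the last a flap endonuclease of DNA replication. For Tk1 they were Trip13 (0.992), Esco2 (0.991), Asf1b (0.991), Gmnn (0.990) and Cenpi (0.989). Esco2 acetylates cohesin in S phase, Asf1b is a histone chaperone and Gmnn restrains replication licensing. For Samhd1 they were Aim1 (0.960), Irf2 (0.950), Tgfbr3 (0.938), Plekha2 (0.931) and Adamts15 (0.931), of which Irf2 is an interferon regulatory factor.

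The pathways that feed these enzymes were counted at QD 80 mpk 24 h with the background of 15.3% lower and 17.6% higher. In purine synthesis 12 of 14 genes were lower and 1 higher (median −0.67), and in pyrimidine synthesis 4 of 5 were lower and 0 higher (median −0.76). The folate list was mixed, with 6 of 17 lower and 3 higher (median 0.05). Salvage and pool-cleaning enzymes outside the 9 had 13 of 27 lower and 7 higher (median −0.12). The differences of every gene of these lists are plotted.

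**Figure D4:**
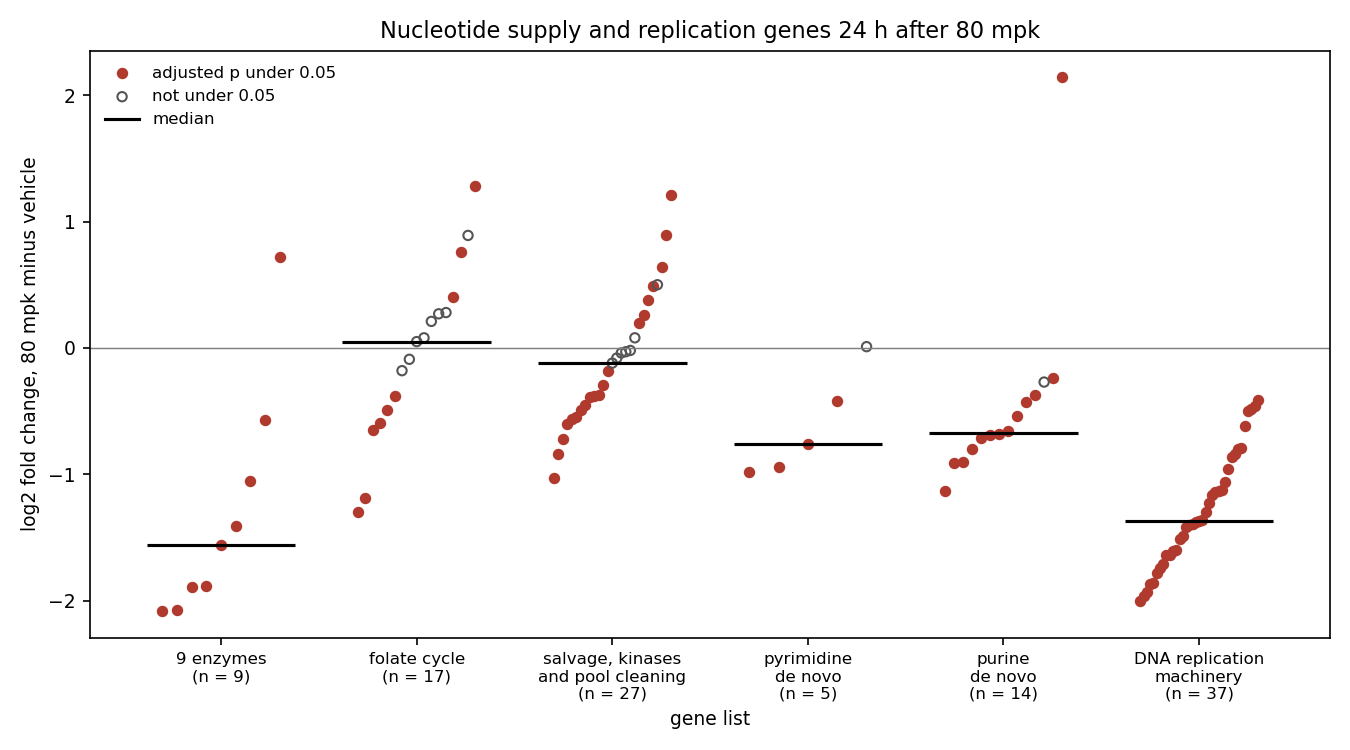
Log2 difference at 24 h, QD 80 mpk minus QD vehicle (y axis), of each gene in 6 lists (x axis); filled red points passed the adjusted p of 0.05, open points did not, and lines are list medians. The medians are −1.56 for the 9 enzymes and −1.37 for the 37 replication genes, against 0.05 for the 17 folate genes.

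In the folate list Mthfd2, a mitochondrial enzyme of one-carbon units, stood at 1.98 in 80 mpk tumours and 4.87 in vehicle tumours (−1.30 ± 0.10, adjusted p = 1.19e-17). Mthfd1, its cytosolic counterpart, stood at 0.958 and 2.19 (−1.19 ± 0.10), and Mthfd1l at 0.685 and 1.07 (−0.65 ± 0.10). The 3 folate genes that were higher were Mthfs (0.76 ± 0.11), the folate receptor Folr2 (1.28 ± 0.35) and the folate hydrolase Ggh (0.40 ± 0.12). Folr2 is known from macrophages. With the muscle and fibroblast covariates, which hold no macrophage markers, its difference was 0.59 (adjusted p = 0.164). The part of host cells in the Folr2 difference was not tested.

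Among pool enzymes Dctpp1, which hydrolyses dCTP, stood at 3.64 in 80 mpk tumours and 7.40 in vehicle tumours (−1.03 ± 0.07, adjusted p = 8.3e-18). Uck2, a uridine-cytidine kinase, differed by −0.72 ± 0.09 and the diphosphate kinase Nme1 by −0.56 ± 0.08. Nudt16 (0.89 ± 0.13), the thymidine phosphorylase Tymp (0.64 ± 0.13) and Dguok, the mitochondrial deoxyguanosine kinase (0.49 ± 0.10), were higher. In pyrimidine synthesis Ctps, which makes CTP, stood at 4.02 and 7.94 (−0.98 ± 0.06, adjusted p = 4.09e-20), and Umps, Cad and Dhodh differed by −0.94 ± 0.07, −0.76 ± 0.11 and −0.42 ± 0.09. In purine synthesis Ppat, the enzyme of the committed step, stood at 0.997 and 2.19 (−1.13 ± 0.09). Gmps, Gart and Prps1 differed by −0.91 ± 0.07, −0.90 ± 0.09 and −0.68 ± 0.08. The 1 purine gene that was higher was Adssl1, the muscle form of its enzyme (2.14 ± 0.84, adjusted p = 0.0408), at 0.48 (adjusted p = 0.327) with the muscle and fibroblast covariates. The part of muscle in the Adssl1 difference was not tested.

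The DNA replication machinery, which uses deoxynucleotides, was counted in the same comparisons. All 37 measured replication genes were lower at QD 80 mpk 24 h (median −1.37) and with BID at 36 h (median −1.38). Of all genes 15.3% and 17.7% were lower there. Mcm2, a subunit of the replicative helicase, stood at 2.26 in 80 mpk tumours and 7.74 in vehicle tumours at QD 24 h (−1.78 ± 0.12, adjusted p = 6.12e-19). Pole, the leading-strand polymerase, differed by −1.86 ± 0.14 and the sliding clamp Pcna by −0.86 ± 0.09. At 6 h 3 replication genes were lower at 40 mpk and 4 at 80 mpk (medians −0.20 and −0.25), against 1.05% and 1.18% of all genes. Without arrays rich in muscle transcripts 8 were lower at 40 mpk (median −0.24), beside 212 of all 21552 genes.

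At 12 h calls were counted in the replication and mitosis lists beside the enzymes. Of all genes 2.59% were lower at 40 mpk and 5.99% at 80 mpk. Of the 37 replication genes 29 were lower at 40 mpk and 31 at 80 mpk (medians −0.57 and −0.61), and the medians of the 9 enzymes were −0.56 and −0.55. Of 24 mitotic genes 0 were lower at either dose (medians 0.08 and 0.05), and at 80 mpk Ccnb2, a B-type cyclin, was higher (6.45 in 80 mpk tumours and 4.73 in vehicle tumours, 0.45 ± 0.14, adjusted p = 0.0243). At 24 h after 80 mpk 23 of the 24 mitotic genes were lower (median −1.61), against 15.3% of all genes. At QD 36 h after 80 mpk 16 mitotic genes were lower (median −0.51), beside 4 of 37 replication genes (median −0.25) and 1 of the 9 enzymes. Of all genes 5.64% were lower there. Without arrays rich in muscle transcripts 10 mitotic genes (median −0.34) and 0 replication genes (median −0.19) were lower, beside 609 of all 21552 genes. The difference between the lists was not tested.

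Another list held E2F factors, their Tfdp partners, D and E cyclins and Rb family genes. Of these 18 genes 13 were lower and 2 higher at QD 80 mpk 24 h (median −0.81), against 15.3% and 17.6% of all genes. The part of E2F factors in the differences of the enzymes was not tested. E2f1 stood at 0.901 in 80 mpk tumours and 1.81 in vehicle tumours (−1.01 ± 0.13, adjusted p = 6.98e-09). The repressors E2f7 and E2f8 differed by −1.86 ± 0.15 and −1.61 ± 0.11. At 12 h after 80 mpk 10 of the 18 were lower and 0 higher, against 5.99% and 3.85% of all genes. E2f7 stood at −1.09, E2f1 at −0.63 and E2f8 at −0.58.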

How the data were processed

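Gene expression was measured in 75 medulloblastoma allografts, with biotin-labelled cRNA on one-colour arrays. The authors deposited 1 intensity for each probe set of an array. RMA is named per the submitters' processing notes, without settings or version, and the genome build is not given in the sources used here. All values lay between 0.0166 and 99.9 with a mean of 1.000 per array, so they were read as linear and log2 was taken without a pseudocount. Of 43681 probe sets 30342 had 1 gene symbol in the platform annotation and 13339 had none, and symbols were updated through RefSeq accessions and synonyms. The probe set with the highest mean stood for each of 21552 genes. No 2 arrays were identical, and correlations between arrays were 0.941 to 0.9966. The number of arrays limits the precision.

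A fit with limma 3.58.1 in R 4.3.3 held 1 mean for each of 19 groups over all 75 arrays, with moderated t-statistics (56 residual and 3.37 prior degrees of freedom) and Benjamini-Hochberg adjustment over all genes at 0.05. The fit was tested on simulated data. Figures were drawn with Matplotlib 3.10.9. Arrays with the same replicate number did not deviate together: 12 of 42 pairs had a correlation over 0.1 (range −0.61 to 0.5), so the numbers were not taken as pairs. Alternatives were another choice of probe set, a filter on dim probes, a second quantile normalisation, array weights, a trended robust spread, a fit on the groups compared, a replicate block, the mean levels of the muscle and fibroblast lists as covariates and leaving out single arrays. Leaving out muscle-rich arrays (mean log2 of muscle markers above 0) was added after seeing the data.

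The members and gene lists were chosen with earlier results of these data known, so no count over a list is independent evidence. Genes were named by rule: the 9 members and Rrm2b, the 5 genes most like Rrm2, Tk1 and Samhd1, up to 4 per supply list by adjusted p at QD 80 mpk 24 h, up to 3 per list called the other way, and Gli1, Pcna, Mcm2, Pole, E2f1, E2f7 and E2f8. Ccnb2 falls outside the rule and was named after its value was seen.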

Additional observations from a re-analysis of the deposited data

Results flagged for a closer look

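In 126 sets of arrays, 1 for each member and each group of at least 4 arrays, 8 held an array set apart from the rest of its group by Dixon's criterion, which chance meets in about 1 of 20 sets. Replicate 3 of QD 40 mpk at 1 h stood apart in 2 genes, at 3.18 for Tyms (others 4.16 to 4.25) and 2.35 for Samhd1 (others 0.790 to 0.822). Replicate 1 of QD 80 mpk at 36 h stood apart in 2 genes as well, at 2.0 for Rrm2 (others 3.98 to 4.48) and 5.23 for Dck (others 6.81 to 7.03). Replicate 2 of the BID groups at 36 h stood apart at 1.03 for Samhd1 in 80 mpk tumours (others 1.77 to 1.95) and at 4.16 for Tyms in vehicle tumours (others 3.58 to 3.69). Replicate 5 of QD 40 mpk at 6 h read 4.74 for Rrm2 (others 3.11 to 3.45). Replicate 1 of QD vehicle at 24 h read 2.57 for Shmt1 (others 3.13 to 3.38).

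Effects of MK4101 differed between times or schedules in 29 tests of the difference itself. From 12 to 24 h at 40 mpk the effect on Dtymk moved by −0.42. Over the same interval at 80 mpk the effects moved by −0.86 for Tyms, −1.18 for Tk1, −0.86 for Rrm1, −1.53 for Rrm2, −1.47 for Dut, −0.70 for Dtymk, −1.14 for Shmt1 and 1.41 for Samhd1. For 24 to 36 h at 40 mpk they moved back by 0.98 for Tyms, 1.06 for Tk1, 0.84 for Rrm1, 0.93 for Dut, 0.58 for Dtymk and 1.28 for Shmt1. At 80 mpk they moved back by 1.31 for Tyms, 1.49 for Tk1, 1.14 for Rrm1, 1.48 for Rrm2, 1.47 for Dut, 0.61 for Dtymk and 1.82 for Shmt1. With BID instead of QD dosing at 36 h the effects were lower by −1.52 for Tyms, −1.79 for Tk1, −1.19 for Rrm1, −1.71 for Rrm2, −1.48 for Dut, −0.88 for Dtymk and −1.63 for Shmt1. Dck is in none of these 29.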

How the results depend on the processing

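The 8 lower members at QD 24 h (both doses) and BID 36 h were called in every alternative run. The count of members lower at 40 mpk 6 h was 1 instead of 0 with the filter on dim probes, array weights, muscle and fibroblast covariates or no muscle-rich arrays, and that at 80 mpk 6 h was 0 in the fit on the groups compared. The count at 80 mpk 36 h was 2 with the dim filter and 4 with array weights, instead of 1. Samhd1 at QD 80 mpk 24 h was not called with the mean of all its probe sets (0.38, adjusted p = 0.106), a second quantile normalisation (0.62, adjusted p = 0.0767), a trended robust spread (0.72, adjusted p = 0.053), the replicate block (0.69, adjusted p = 0.0676), these covariates (−0.06) or no muscle-rich arrays (0.73, adjusted p = 0.214), which left 0 members higher. With the covariates it was −0.17 at BID 36 h, again 0 higher. The replicate block also ended the call of Dtymk at 40 mpk 12 h (−0.28, adjusted p = 0.0721) and no other. Fits on the groups compared, and fits without muscle-rich arrays, ended that call too and the Dck call at 80 mpk 12 h, and the fit on the groups compared ended the Dtymk call at 80 mpk 12 h (−0.35, adjusted p = 0.071). Calls gained at 40 mpk 12 h included Dut with the dim filter (−0.56, adjusted p = 0.0401) and Dck with array weights (−0.40, adjusted p = 0.00944). With the mean of all probe sets Rrm2 (−0.74, adjusted p = 0.0396) and Dut (−0.62, adjusted p = 0.000761) were gained there. That setting also gained Dut at 80 mpk 12 h (−0.66, adjusted p = 5.25e-05). Between doses at 24 h Dtymk was gained with the trended robust spread (−0.33, adjusted p = 0.0425). Leaving out single arrays gave 0 to 1 members lower at 6 h at either dose, 4 to 6 at 40 mpk 12 h, 5 to 6 at 80 mpk 12 h, 8 to 8 at 24 h and BID 36 h, 1 to 3 at 80 mpk 36 h, and 4 to 5 between doses at 24 h. Samhd1 gave 0 to 1 higher at 24 h. For changes of effect they gave 0 to 2 (40 mpk, 24 minus 12 h), 7 to 7 lower and 0 to 1 higher (80 mpk, 24 minus 12 h), 5 to 6 (40 mpk, 36 minus 24 h), 7 to 7 (80 mpk, 36 minus 24 h) and 7 to 7 (BID minus QD).

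Over all genes, array weights changed the number called to 607, against 378 (80 mpk 6 h), to 2353, against 1400 (40 mpk 12 h), to 350, against 146 (40 mpk 36 h), and to 3957, against 2341 (80 mpk 36 h). The covariates gave 254, against 146, at 40 mpk 36 h. Fits on the groups compared, with fewer samples to estimate the spread, gave 172, against 362 (40 mpk 6 h), 110, against 378 (80 mpk 6 h), 655, against 1400 (40 mpk 12 h), 1007, against 2120 (80 mpk 12 h), 0, against 146 (40 mpk 36 h), and 859, against 2341 (80 mpk 36 h). Without muscle-rich arrays there were 716, against 1400 (40 mpk 12 h), 1352, against 2120 (80 mpk 12 h), and 1171, against 2341 (80 mpk 36 h). That setting was not run for 40 mpk at 24 and 36 h and 80 mpk at 6 h, where fewer than 2 arrays of a group were left. A second quantile normalisation moved the share of called genes that were higher to 50.4%, against 39.1% (80 mpk 12 h), to 40.0%, against 54.6% (40 mpk 24 h), to 43.4%, against 53.6% (80 mpk 24 h), and to 28.3%, against 42.5% (40 mpk 36 h). The cause of these changes was not tested.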
